A study of Mus musculus with 12 samples.

Results

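Spliceosome and hnRNP genes were followed in neutrophils sorted from the mouse heart. The set was chosen by name: every gene whose symbol begins with Snrp, Srsf and a digit, Sf3a or Sf3b and a digit, or Hnrnp, with names ending in -ps left out. It holds 52 of the 11911 genes in the table. They are 8 genes for the Sm ring proteins, 4 for other proteins of the U1 and U2 particles, 9 for the SF3a and SF3b complexes, 10 for SR proteins and 20 for hnRNP proteins. The last name match, Snrpert, is annotated as a processed pseudogene.

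In all, 6 libraries carry the genotype label Control and 6 the label LOY, which stands for loss of the Y chromosome in the title of the series. Control libraries are named here by the numbers in their titles (2, 6, 7, 8, 11 and 12), and so are LOY libraries (3, 4, 5, 10, 14 and 15). The treatment label of all 12 reads Control and all 12 titles read Control BMT, so both groups share these. They differ in the genotype label and in the code in the title, which ends in C for control and in KO for LOY libraries. Per the labels' protocols, each library came from 800 sorted CD45.2+Ly6G+CD64-RFP+ cells of the digested left ventricle. The labels do not spell out BMT or say what drives RFP, and the sources used here do not give how the Y chromosome was removed, the strain, or the age of the mice. Whether each library came from its own mouse is not stated in the labels, so the p-values rest on a spread between libraries that may be technical.

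Introns are cut out of new transcripts by the spliceosome, which is built from small nuclear ribonucleoproteins (snRNPs) on each intron. Sm proteins form a ring around the RNA of most snRNPs. The U1 particle recognises the start of the intron, and the U2 particle, with SF3a and SF3b, binds the branch point near its end. SR proteins mostly promote the use of nearby exons, and hnRNP proteins coat transcripts and often act against them. Neutrophils are short-lived cells that carry less RNA than most other leukocytes.

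Reads in the listed genes came to between 6767108 and 12561174 per library. The 3 Y-linked genes listed of the 4 looked for summed to 1032 to 1972 normalised reads in control libraries and to 0 to 59.3 in LOY libraries, in the direction of the genotype labels. The 10 neutrophil markers were all listed, and 2 of them had a higher mean in LOY. They summed to 316806 to 939954 in control and 313535 to 703889 in LOY libraries, with means of 595243 and 483080. Ly6g, whose protein was used in the sort, was at 0 in 1 library and reached 1039 at most. Markers of cardiomyocytes were not evenly spread: all 15 had a higher mean in LOY, with sums of 4977 to 9157 in control and 5949 to 75294 in LOY libraries, the highest in LOY 10. All 8 fibroblast markers also had a higher mean in LOY, with sums of 2972 to 10540 in control and 5835 to 16383 in LOY. Macrophage marker sums were 7730 to 10119 in control and 4102 to 13801 in LOY, B cell sums 3263 to 12354 and 2996 to 8887, endothelial sums 1166 to 5336 and 2850 to 6314, and red cell and platelet sums 13.6 to 9765 and 165 to 6986. T and NK cell markers, 3 of 8 listed, summed to 0 to 645 and 0 to 658. Means were higher in LOY for 3 of 10 macrophage, 2 of 8 B cell and 7 of 10 endothelial markers. The same held for 1 of 6 red cell and platelet markers and for all 3 T and NK cell markers. Of the markers of all these cell types, 0 passed the test described below. The part of these cells in any value below was not tested, and in bulk samples fewer cells of a type and less RNA per cell cannot be told apart.

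No spliceosome or hnRNP gene passed the test between LOY and control libraries. Of the 52 genes, 46 reached 10 normalised reads or more in 6 libraries or more and were tested, and 0 were called at an adjusted p under 0.05 by limma, a linear model fitted here to log2(normalised reads + 1) across all genes. Over all 6951 genes tested the background was 0.0288%, or 2 genes. At an unadjusted p under 0.05 the count was 2 of 46 (4.35%), Snrpc and Hnrnpf, beside 4.37% of all genes tested. The log2 fold change (LOY minus control) was above 0 in 24 members (52.2%) and below 0 in 22, beside 50.4% above 0 over all genes. Its median was 0.02 in members and 0.01 over all genes, and members ranged from -2.90 (Sf3a3) to 2.44 (Snrpc). In 0 of 46 members did the 6 values of one group lie outside the range of the other, beside 14 of 6951 genes (0.201%).

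The same reads under count models gave no member either. DESeq2 called 0 of 51 members it could test, where it called 3.12% of all genes, and 3 had an unadjusted p under 0.05 (Snrpc, Snrpa and Srsf1), beside 10.1% of all genes. edgeR called 0 of 47 members and 0 of 7054 genes, with 0 members at an unadjusted p under 0.05 and 1.83% of all genes. Of the 46 members tested in limma, 7 had a fold change of the opposite sign in both count models: Sf3a2, Snrpf, Snrpg, Hnrnpd, Hnrnph2, Hnrnph3 and Hnrnpu. In the authors' deposited table, 51 members have a p-value, 0 an adjusted p under 0.05, and the lowest adjusted p is 0.435. This is no separate result, since all 303 calls of that table were shared with the DESeq2 fit.

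How much difference these libraries could have hidden varied from gene to gene. The median standard error of a member's log2 fold change was 0.93, beside 1.35 over all genes. The 95% interval of the fold change stayed within 1 log2 unit of 0 in 6 of 46 members (13.0%, background 5.68%): Sf3b1, Sf3b2, Srsf3, Srsf5, Hnrnpa2b1 and Hnrnpu. For the rest the interval reached past 1 log2 unit on at least 1 side, so these libraries leave room for a difference of that size. The backgrounds for the standard error and the interval are over genes of all levels. They were not matched to the level of the members. The plot of fold changes by gene shows which intervals are narrow.

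**Figure D1:**
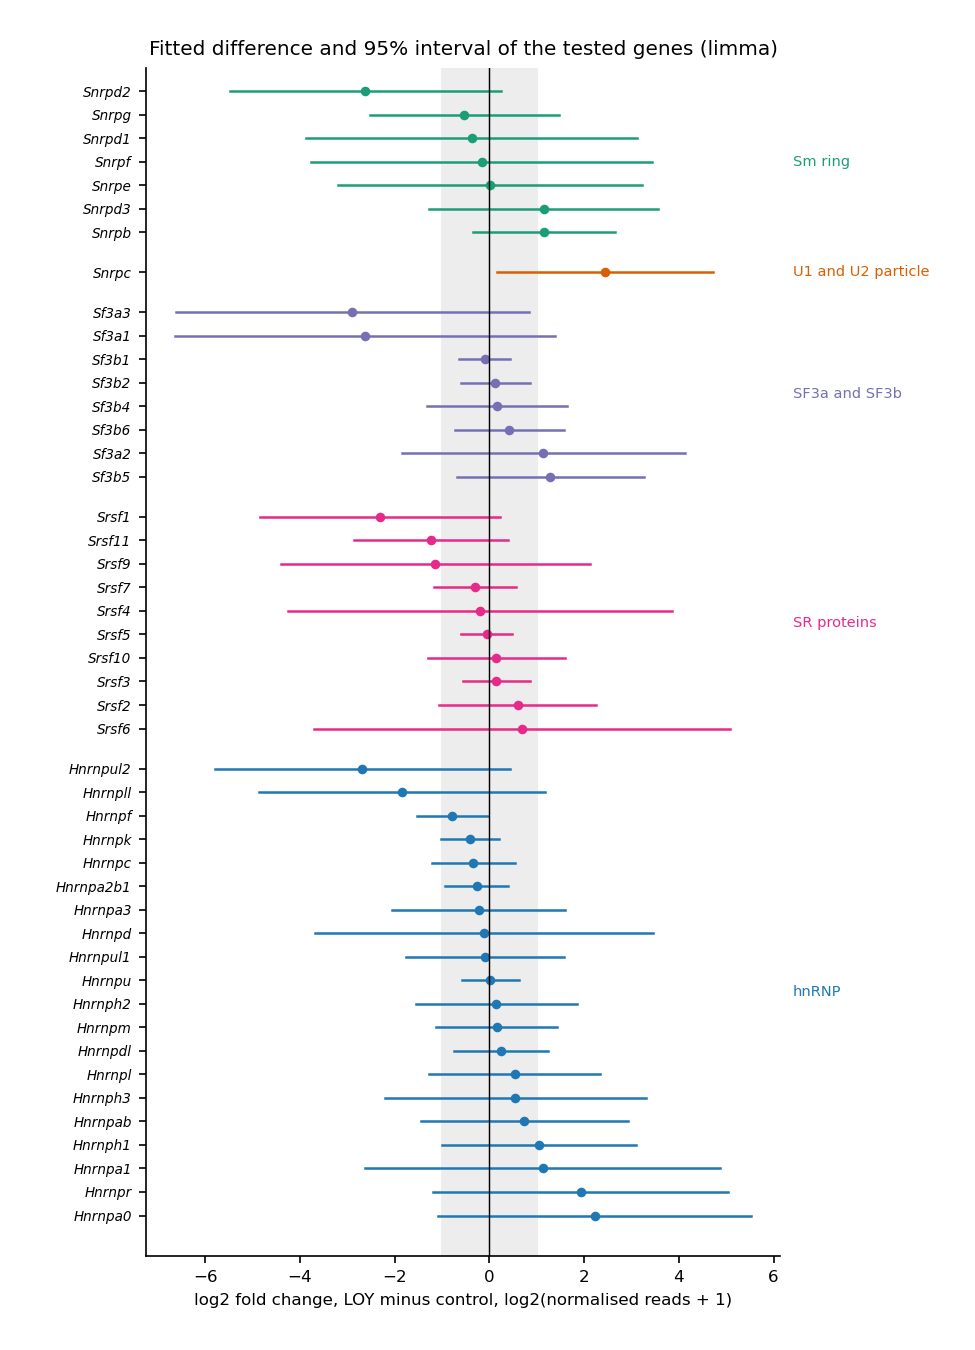
Log2 fold change of each tested member (points, LOY minus control, on the log2(normalised reads + 1) scale) with its 95% interval from limma (bars), grouped by role. Only the intervals of Snrpc (0.16 to 4.72) and Hnrnpf (-1.53 to -0.04) leave out 0, and neither passed after adjustment.

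Most members were detected in most libraries. Reads were found in all 12 libraries for 31 of 52 members (59.6%), beside 34.6% of all genes listed. At least 10 normalised reads were reached in all 12 by 25 members (48.1%, beside 20.6%). Both backgrounds are over genes of all levels. At like levels the shares read in all 12 libraries were closer between members and listed genes. They were 10% and 10% under 100 normalised reads and 33.3% and 26.7% from 100 to 300. From 300 to 1000 they were 87.5% and 78.5%, and from 1000 they were 100% and 99.1%. Between 47 and 51 members had a read in each control library and between 42 and 50 in each LOY library, with the fewest in LOY 14. Depth differed as well, with mean reads in listed genes of 9937690 in control and 8364130 in LOY. Over all genes, 7954 to 9463 had a read in control libraries and 7539 to 9267 in LOY libraries. LOY 14 had 7077234 reads and 7950 genes above 0. The part of depth in the member counts was not tested. Summed over the set, members took 0.503% ± 0.0535 of the listed reads in control and 0.496% ± 0.0606 in LOY libraries (SD, n = 6 each). The difference was smaller than the spread within either group.

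A few genes carried most of these reads. The 11 genes with the most reads held 69.3% of the members' total, led by Sf3b1 (11.9%), Srsf5 (11.6%) and Hnrnpa2b1 (9.75%). Per kilobase of merged exons, which allows genes to be compared, Srsf5 stood highest at a mean level of 1132 normalised reads per kilobase over the 12 libraries. Hnrnpa2b1 followed at 578, Snrpb at 527, Hnrnpk at 438, Hnrnpf at 429 and Sf3b1 at 410 normalised reads per kilobase. At the low end stood Snrpn at 6.25 and Hnrnpr at 8.60. Srsf5 had the highest level per kilobase in 10 of 12 libraries, Hnrnpa2b1 leading in control 8 and Snrpb in LOY 15. With the length of the longest transcript in place of merged exons, chosen after seeing the data, Srsf5 stayed first by the mean (1297 per kilobase) but led in 6 of 12 libraries only.

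**Figure D2:**
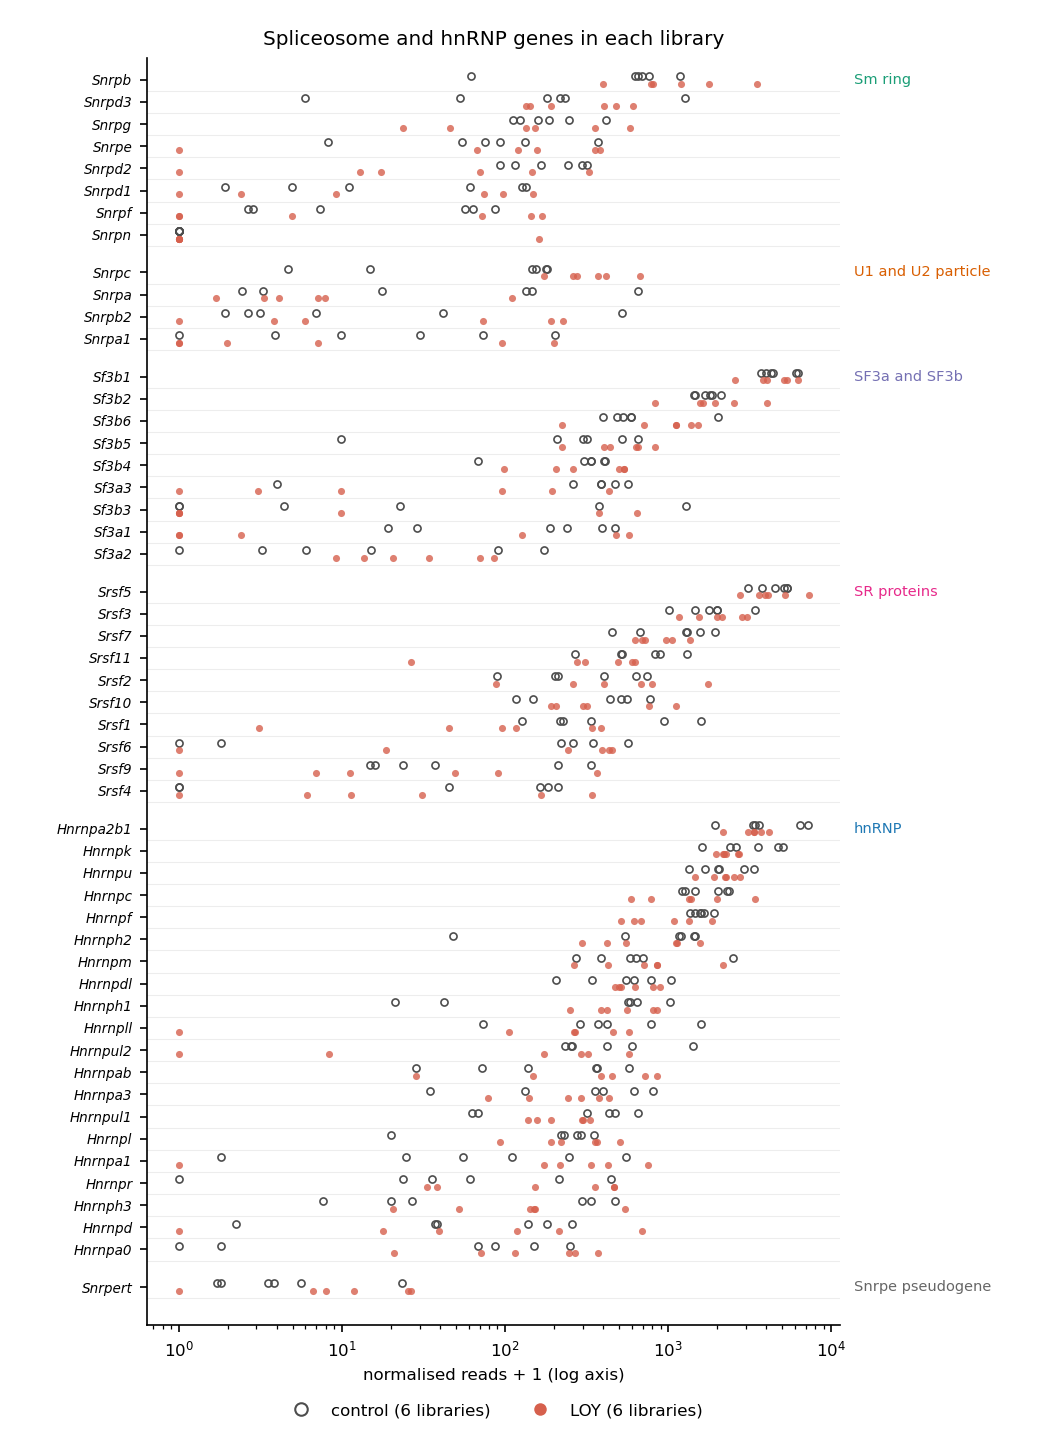
Normalised reads of each of the 52 members in each of the 12 libraries (points, log axis of value + 1), control and LOY side by side. Snrpc lies at 173 or above in all 6 LOY libraries and at 181 or below in control, and Snrpn is above 0 in LOY 14 only.

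Spread between libraries was mostly smaller in well-read members than in thinly read ones. The coefficient of variation over all 12 libraries (SD over mean, both groups together) was 0.248 for Sf3b1, 0.273 for Srsf5 and 0.273 for Hnrnpu. It was 1.24 for Srsf1 and 1.34 for Hnrnpd. Snrpb was the exception among the 11 members of at least 1000 normalised reads, at 0.860, where the next was Hnrnpc at 0.464. At that level the median was 0.380 over the 11 members and 0.453 over 1080 genes tested. From 300 to 1000 the medians were 0.685 (16 members) and 0.745 (2183 genes), and from 100 to 300 they were 0.891 (14 members) and 1.12 (2463 genes). Under 100, 5 members had a median of 1.18 and 1225 genes 1.16, and these 5 had passed the filter on low values, which removes the sparsest genes of this range.

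**Figure D3:**
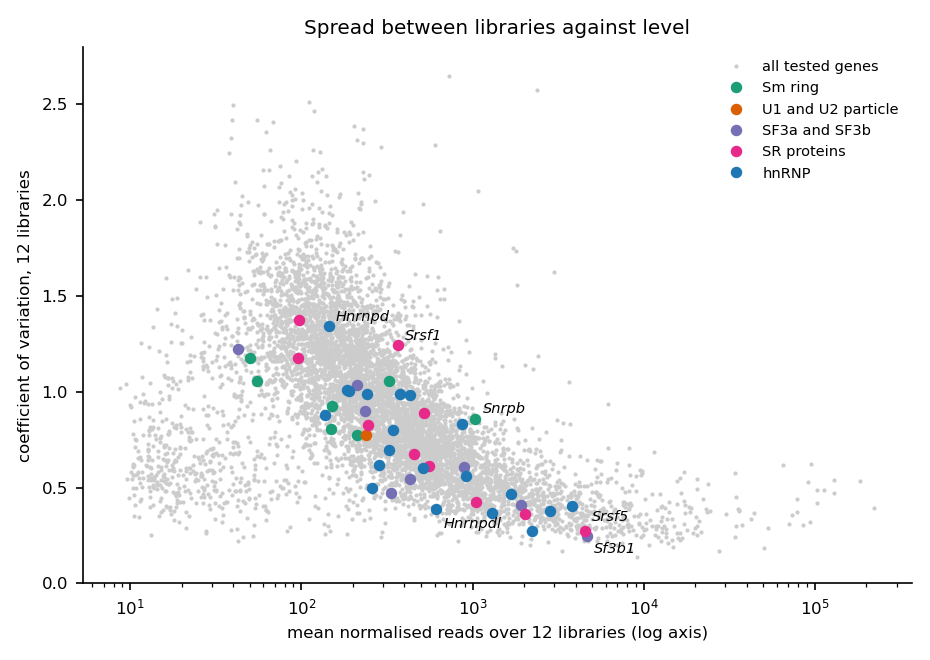
Coefficient of variation over the 12 libraries (vertical axis) against mean normalised reads (horizontal log axis) for all tested genes and for members. Members follow the general fall with level, from a median of 1.18 under 100 normalised reads to 0.380 at 1000 and above.

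Promoter sequence was available for 45 of the 52 members in RefSeq (GRCm38.p6), as windows from 250 bases before to 50 bases after each start. The 7-letter motif CCGGAAG, 1 form of the site that transcription factors of the ETS family bind, was looked for on both strands, its reverse reading CTTCCGG. Other forms of the site were not counted. It was present for 16 of 45 members (35.6%), 1777 of 8507 genes of the table (20.9%), 1156 of 5067 tested genes (22.8%) and 2683 of 27025 genes with a promoter in RefSeq (9.93%). The motif holds a CpG (C followed by G), and these sets differ in CpG. The median CpG count of a gene's richest window was 26, 22, 23 and 8 in that order. The shares were not matched for CpG or for windows per gene (62 windows for the 45 members), so no excess in members can be read from them. By role it was present for 6 of 7 SF3a and SF3b genes, 4 of 10 SR genes, 2 of 6 Sm genes, 2 of 4 U1 and U2 genes and 2 of 18 hnRNP genes. A match is a description of these letters and not evidence that a factor binds. The 4 windows below are shown because their genes carry the results: Srsf5 (chr12:80945249-80945548, + strand) has the highest level per kilobase and the motif on both strands, Sf3a3 (chr4:124714611-124714910, + strand) has the lowest fitted fold change and the motif on the reverse strand, Snrpc (chr17:27839837-27840136, + strand) has the highest fold change and 1 forward match, and Sf3b1 (chr1:55027429-55027728, - strand) has the most reads and no match. Capitals mark the motif, and each is written along the strand of its gene.
Srsf5: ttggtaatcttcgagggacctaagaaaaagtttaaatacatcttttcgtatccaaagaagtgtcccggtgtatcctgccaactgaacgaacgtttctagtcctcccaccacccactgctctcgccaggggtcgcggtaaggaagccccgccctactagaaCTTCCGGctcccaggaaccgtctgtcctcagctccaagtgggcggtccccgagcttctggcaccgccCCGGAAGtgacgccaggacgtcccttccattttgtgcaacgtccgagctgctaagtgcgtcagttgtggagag
Sf3a3: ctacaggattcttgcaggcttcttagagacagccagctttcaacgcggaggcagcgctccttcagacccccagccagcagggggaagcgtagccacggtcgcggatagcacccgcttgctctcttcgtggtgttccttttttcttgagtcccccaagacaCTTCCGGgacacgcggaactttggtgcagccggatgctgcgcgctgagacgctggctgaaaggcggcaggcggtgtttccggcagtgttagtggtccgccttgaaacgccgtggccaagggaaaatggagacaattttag
Snrpc: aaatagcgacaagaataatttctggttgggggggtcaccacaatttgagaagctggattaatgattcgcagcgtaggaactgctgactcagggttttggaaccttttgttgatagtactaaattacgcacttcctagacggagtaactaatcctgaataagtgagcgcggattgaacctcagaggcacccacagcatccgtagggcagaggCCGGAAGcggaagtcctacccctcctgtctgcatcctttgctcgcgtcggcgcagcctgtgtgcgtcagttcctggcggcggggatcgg
Sf3b1: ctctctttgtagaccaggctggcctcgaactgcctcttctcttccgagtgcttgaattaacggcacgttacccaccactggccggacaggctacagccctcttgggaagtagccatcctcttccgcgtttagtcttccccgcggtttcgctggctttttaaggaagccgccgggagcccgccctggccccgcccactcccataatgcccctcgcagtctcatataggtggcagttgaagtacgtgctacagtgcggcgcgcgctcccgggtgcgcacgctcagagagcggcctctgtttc

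Sm ring genes gave limma fold changes in both directions, 3 of 7 tested above 0 and 4 below, with a median of -0.17, and 0 were called. This tally depends on the model. Snrpf, which gave the median, was at 0.85 in DESeq2 and 0.81 in edgeR, and Snrpg also turned above 0 in both. Of the 8 ring genes listed, 6 had a higher mean in LOY, beside 6061 of all 11911 genes. Among these 6 the means, control then LOY, were 325 and 326 for Snrpd3 and 207 and 215 for Snrpg. Snrpn, also among them, was read in LOY 14 only. Snrpb, which encodes the SmB and SmB' proteins (chromosome 2, 130171414 to 130179403), was the most abundant of them. It had 60.8, 669 and 1183 normalised reads as lowest, median and highest value in control, and 401, 1005 and 3531 in LOY libraries. Control 8 lay far below the other controls (624 to 1183), and LOY 15, LOY 5 (1784) and LOY 10 (1205) were above the highest control. The mean was 662 ± 359 in control and 1419 ± 1136 in LOY (SD, n = 6 each), a difference of 1.16 ± 0.70 (SE) on the log2 scale (limma, adjusted p = 0.997). Leaving out 1 library at a time moved it between 0.56, without control 8, and 1.45.

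Snrpd2, another ring protein, ran the other way. Its lowest, median and highest values were 92.0, 204 and 319 in control, and 0, 43.0 and 327 in LOY libraries. Of the LOY libraries, 4 lay below every control and LOY 10 above every one, so the groups overlapped. Snrpd2 had a log2 fold change of -2.62 (SE 1.33; limma, adjusted p = 0.997), which was -1.10 in DESeq2, -1.12 in edgeR and -1.63 without LOY 4. Snrpd3 and Snrpg differed by 1.14 (SE 1.13) and -0.53 (SE 0.93) on that scale, no more than about their errors. Snrpd3 reached 1266 in control 8 and 4.97 in control 7, a wider range than the 133 to 606 of the LOY libraries. Its means were 325 and 326, its fold change was 0.0030 in DESeq2 and 0.047 in edgeR, and in limma it was 0.27 without control 7 and 1.81 without control 8. Snrpe, Snrpd1 and Snrpf had medians of 83.7, 35.2 and 31.0 in control and 137, 40.8 and 37.5 in LOY, with 0 reads of Snrpe and Snrpd1 in LOY 14 and 0 of Snrpf in LOY 3 and LOY 14.

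Snrpn, an imprinted gene for the SmN protein that can take the place of SmB and is best known from brain, was not tested. It had 0 reads in 11 libraries and 154 reads (162 normalised) in LOY 14. A count of 0 allows up to 3 reads per library, counting error only. The gene (chromosome 7, 59982495 to 60140219) shares exons with Snurf and Gm38393, so reads there cannot be given to one of them. Snrpb, the ring gene it can stand in for, had 806 normalised reads in LOY 14, inside the range of the other LOY libraries.

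Snrpert lies on chromosome 2 (131322088 to 131322366) and its 279 bases match the Snrpe transcript at 276, or 98.9%. It had 44 reads in control and 85 in LOY libraries. Its highest values, 22.5, 24.6 and 25.7 normalised reads, were in control 6, LOY 3 and LOY 15, which were also the 3 libraries highest for Snrpe (373, 384 and 354). With so close a copy, reads of the pair could be split between them by the authors' counting, and both values are uncertain.

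Among the U1 and U2 particle genes, Snrpc came nearest to a difference between the groups. It encodes the C protein of the U1 particle, which steadies the pairing of U1 with the start of the intron, and lies on chromosome 17 at 27838150 to 27851968. Values in control were 3.70, 150 and 181 normalised reads (lowest, median, highest), and in LOY 173, 323 and 671. Controls 8 (13.9) and 12 (3.70) were far below the other controls. Of the 6 LOY libraries, 5 lay above every control, and LOY 14 (173) alone fell within the control range.

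Means for Snrpc were 113 ± 81.7 in control and 362 ± 174 in LOY (SD, n = 6 each). On the log2 scale LOY exceeded control by 2.44 in limma (SE 1.07, 95% interval 0.16 to 4.72). The fold change was smaller in the count models, at 1.68 in DESeq2 and 1.66 in edgeR. The adjusted p was 0.997 in limma, 0.435 in DESeq2 and 1.00 in edgeR. Without control 12 the log2 fold change in limma was 1.70, and without control 8 it was 2.03. Snrpc did not pass under any of the 22 alternatives run.

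The other 3 genes of the particles were too thinly read for the main test. Snrpa, for the A protein of the U1 particle, had at least 10 normalised reads in 4 control libraries and 1 LOY library, with 898 and 175 reads in all. Its lowest, median and highest values were 1.45, 75.7 and 655 in control and 0.706, 4.67 and 110 in LOY. The groups overlapped, with control 8 and LOY 3 the highest of each, and DESeq2 gave an adjusted p of 0.467. Snrpa1 and Snrpb2, which encode proteins of the U2 particle, had values from 0 to 201 and from 0 to 518 over the 12 libraries. Each was near 0 in several libraries of both groups and high in a few.

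Of the SF3a and SF3b genes, 5 of 8 tested had a fold change above 0 and 3 below, with a median of 0.14, and 0 were called. Sf3b1 encodes the largest protein of SF3b and is a gene often mutated in myelodysplastic disease. It had 3718, 4346 and 6235 normalised reads (lowest, median, highest) in control and 2586, 4590 and 6285 in LOY libraries. Every control value lay inside the LOY range. The fold change was -0.10 on the log2 scale (SE 0.25, 95% interval -0.64 to 0.43; limma, adjusted p = 0.999). Sf3b2, its partner in the same complex, had 1434, 1744 and 2104 in control and 826, 1793 and 4031 in LOY, where LOY 14 was lowest and LOY 5 highest.

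The SF3a genes and the smaller SF3b genes were far less even. Sf3a3 encodes a subunit of SF3a, and its values were 2.99, 387 and 568 in control and 0, 51.7 and 436 in LOY libraries. Control 6 was the single low control, while 5 of the 6 LOY libraries were below the other 5 controls. Its log2 fold change of -2.90 had a standard error of 1.74 (limma, adjusted p = 0.997). In DESeq2 and edgeR it was -1.50. Sf3a1 gave -2.63 (SE 1.87), with 0 in LOY 14 and LOY 15 and 474 and 580 in the highest control and LOY library. Its means were 223 and 198, and the fold change was -0.17 in DESeq2, -0.16 in edgeR and -1.75 without either LOY 14 or LOY 15. Both intervals held 0. The window of Sf3a3 printed above holds the motif CCGGAAG on its reverse strand.

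Sf3a2 had low values throughout, with medians of 9.58 in control and 26.4 in LOY libraries and a log2 fold change of 1.14 (SE 1.40). Its direction turned with the model, to -0.32 in DESeq2 and -0.33 in edgeR. Sf3b5, the smallest SF3b protein, gave 1.29 (SE 0.92), with 8.87 in control 8 and 207 to 653 in the other controls, and 225 to 829 in LOY. Without control 8 it gave 0.42, and in DESeq2 and edgeR 0.67 and 0.65. Sf3b6, which contacts the branch point, gave 0.42 (SE 0.54), with control 8 the highest of all libraries at 2027. It gave 0.26 without LOY 4, 0.81 without LOY 3 and 0.75 without control 8. Sf3b4 had medians of 337 and 380. Sf3b3 was not tested: it ranged from 0 to 1280 in control and from 0 to 643 in LOY, and it shares exon sequence with Cog4.

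SR protein genes were all read widely enough to be tested, 4 of 10 with a fold change above 0 and 6 below, with a median of -0.13, and 0 were called. Srsf5 (chromosome 12, 80945504 to 80950507) had 3107, 4844 and 5373 normalised reads in control and 2764, 4025 and 7259 in LOY libraries. LOY 5 was the highest and LOY 14 the lowest of all 12. Srsf5 had a log2 fold change of -0.06 (SE 0.25, 95% interval -0.61 to 0.49; limma, adjusted p = 0.999). Srsf3, a short SR protein that also acts in RNA export, had 1011, 1887 and 3389 in control and 1161, 2070 and 3035 in LOY, again overlapping.

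Srsf1, among the first SR proteins described and a factor for both constitutive and regulated splicing, lies on chromosome 11 at 88047373 to 88053755. Its values were 126, 282 and 1592 in control and 2.10, 106 and 386 in LOY libraries. Controls 8 (1592) and 2 (938) were highest, and 4 of the 6 LOY libraries were below the lowest control. Means were 573 ± 579 and 164 ± 160 (SD, n = 6 each), and the log2 fold change was -2.31 (SE 1.18), which did not pass (adjusted p = 0.997 in limma, 0.493 in DESeq2). Leaving out 1 library at a time moved the fold change between -2.78 and -1.39, the latter without LOY 14.

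Srsf11, an SR-related protein, gave -1.23 (SE 0.76) on the log2 scale, with 268, 676 and 1306 in control and 25.7, 399 and 626 in LOY libraries. LOY 5 stood alone at 25.7, the other LOY libraries being at 275 or above, and without it the fold change was -0.56. Srsf2, another gene mutated in myelodysplastic disease, gave 0.60 (SE 0.77), with medians of 307 and 545 and the highest value, 1769, in LOY 5. It gave 0.21 without LOY 5, 0.25 without control 6 and 1.08 without LOY 14. It shares exon sequence with Mettl23 and Mfsd11. Srsf7 gave -0.30 (SE 0.40), between -0.55 without control 7 and -0.13 without control 8. Srsf9 gave -1.15 (SE 1.52), between -1.95 without LOY 3 and -0.25 without LOY 4. Srsf10, Srsf6 and Srsf4 had medians of 477, 240 and 104 in control and 309, 320 and 20.4 in LOY, each with ranges that overlapped.

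The 20 hnRNP genes were all tested, 11 with a fold change above 0 and 9 below, with a median of 0.08, and 0 were called. Hnrnpf encodes a protein that binds runs of G near splice sites, and lies on chromosome 6 at 117900324 to 117925622. It had 1368, 1578 and 1917 normalised reads in control and 513, 890 and 1861 in LOY libraries. Of the 6 LOY libraries, 5 were below every control, and LOY 10, at 1861, was below control 6 alone. Means were 1592 ± 189 and 1021 ± 520 (SD, n = 6 each), so the spread was wider in LOY.

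Hnrnpf had a log2 fold change of -0.79 (SE 0.35, 95% interval -1.53 to -0.04). Its adjusted p was 0.997 in limma, 0.699 in DESeq2 and 1.00 in edgeR. LOY 10, the library of the highest cardiomyocyte marker sum, was also the one LOY library in the control range. Whether these go together was not tested. With the mean of the cardiomyocyte markers as a covariate, Hnrnpf gave -1.23 and an adjusted p of 0.529 in limma, and without LOY 10 it gave -0.99. That covariate ran with genotype: it was at most 8.29 (log2) in control and 8.44 or more in every LOY library but LOY 5 (6.22). Its part and that of genotype therefore cannot well be told apart. Under that covariate 5 of 46 members (10.9%, background 7.02%) had an unadjusted p under 0.05 (Hnrnpll, Hnrnpul2, Hnrnpf, Snrpd2 and Srsf11) and 0 were called, the lowest adjusted p being 0.378 (Hnrnpll). That was the lowest adjusted p of any member under any setting run.

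Hnrnpk, which binds runs of C, had 1625, 3069 and 5088 in control and 1964, 2228 and 2726 in LOY libraries. All 6 LOY values lay inside the control range, and the SD was 1365 in control and 303 in LOY. The log2 fold change was -0.41 (SE 0.29, 95% interval -1.03 to 0.21). Hnrnpa2b1 had 1929, 3514 and 7163 in control and 2172, 3350 and 4155 in LOY, again inside the control range, and gave -0.27 (SE 0.31), or -0.099 without control 6. Hnrnpu, a large nuclear scaffold protein, had 1345, 2041 and 3377 in control and 1470, 2256 and 2775 in LOY, and gave 0.02 (SE 0.28). The controls that stood highest differed between these genes: 7 and 6 for Hnrnpk, 6 and 8 for Hnrnpa2b1, 7 and 11 for Hnrnpu.

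The widest fold changes among hnRNP genes came from less abundant ones. Hnrnpul2 gave -2.68 (SE 1.45), with 232, 341 and 1414 in control and 0, 232 and 573 in LOY libraries, and it was at 0 in LOY 5 and 7.4 in LOY 14. It gave -1.22 in DESeq2 and edgeR and -1.47 without LOY 5. Hnrnpa0, which binds AU-rich elements of cytokine transcripts, gave 2.22 (SE 1.54), with medians of 76.4 and 180. Controls 7 and 12 were under 1 and the lowest LOY library was at 20.0, and the fold change was 0.97 in DESeq2, 0.96 in edgeR and 1.27 without control 12. Hnrnpll, known for regulating the splicing of CD45 in lymphocytes, had 397 and 266 as medians, with 0 in LOY 5 and 1591 in control 7, and gave -1.84 (SE 1.41). Hnrnpa1 was at 0 in LOY 4 and under 1 in control 7, and its highest value was 753, in LOY 3. Hnrnph2, the one member on the X chromosome, had medians of 1184 and 839 and gave 0.15 (SE 0.79), with the opposite sign in DESeq2 (-0.20) and edgeR (-0.21).

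Hnrnpc, which binds runs of U, had medians of 1738 in control and 1369 in LOY libraries and gave -0.34 (SE 0.41). Both its lowest value, 589 in LOY 5, and its highest, 3426 in LOY 15, were in LOY. Hnrnph1, a close relative of Hnrnpf, had a lower median in LOY (488) than in control (576) but a fold change above 0, at 1.05 (SE 0.95), as controls 6 and 7 were at 20.2 and 41.4. Hnrnpr, the lowest per kilobase of the tested members, had medians of 47.3 and 255 and gave 1.93 (SE 1.45). Hnrnpdl was among the even ones, with medians of 584 and 571 and 0.25 (SE 0.47). Fold changes of Hnrnpa3, Hnrnpab, Hnrnpd, Hnrnph3, Hnrnpl, Hnrnpm and Hnrnpul1 lay between -0.22 and 0.74, and the groups overlapped for each.

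Summed by role, hnRNP genes had 19138 ± 2963 normalised reads in control and 16193 ± 1356 in LOY libraries (SD, n = 6 each), with ranges of 15668 to 23908 and 15138 to 18805. Sm ring genes summed to 1613 ± 596 and 2381 ± 1380, with LOY 15 highest at 4965. SF3a and SF3b genes summed to 8826 ± 1530 and 9054 ± 1527, and SR genes to 10232 ± 1416 and 9641 ± 3188. The U1 and U2 genes summed to 420 ± 411 and 517 ± 136. Control 8 alone stood at 1196, and without it, left out after seeing the data, the control mean was 264 ± 173 (SD, n = 5). Control 12, the lowest at 21.3, was kept in that mean. Per kilobase of merged exons the same 4 genes summed to 121 ± 147 in control and 108 ± 31.9 in LOY (SD, n = 6 each). The direction of this sum therefore depends on the measure. All 5 sums overlapped between the groups, and no p is given for a sum over members. In LOY the SR sums ran from 5714 in LOY 14 to 15031 in LOY 5, the libraries that were also lowest and highest for Srsf5.

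**Figure D4:**
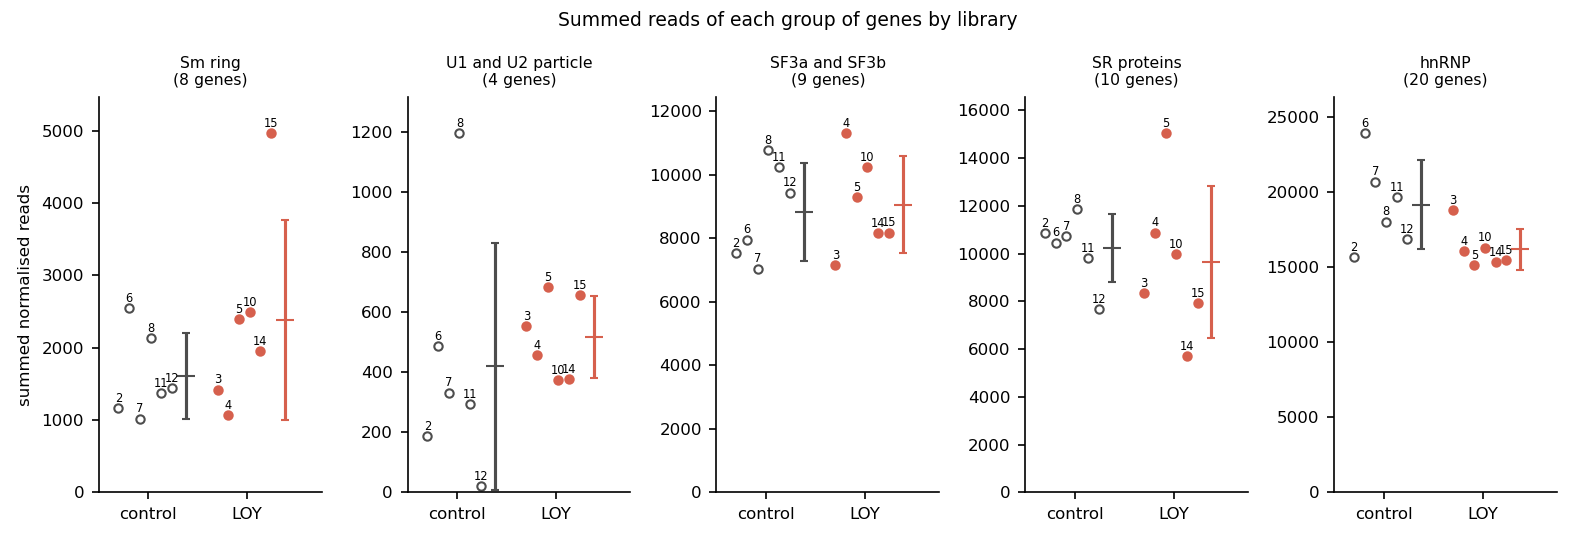
Sum of normalised reads over the genes of each role in each library (points), with group means and SDs. Control and LOY overlap in every role, and LOY 15 (Sm ring, 4965), LOY 5 (SR proteins, 15031) and control 8 (U1 and U2 particle, 1196) stand above the rest.

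Other genes of the splicing machinery were taken from a list of 137, of which 131 were in the table and 111 were tested. None of them (0) passed in limma. At an unadjusted p under 0.05 there were 7 (6.31%, beside 4.37% of all genes), and 46 fold changes were above 0 and 65 below, with a median of -0.19 beside 0.01 over all genes. Ewsr1, an RNA-binding protein that contacts the U1 particle, had the smallest p. It had 507, 1305 and 2274 in control and 1444, 2491 and 3451 in LOY libraries, a log2 fold change of 1.05 (SE 0.39; limma, adjusted p = 0.997). LOY 4, LOY 5 and LOY 14 were above every control, and the rest overlapped.

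Ptbp1, the polypyrimidine tract-binding protein also known as hnRNP I, gave 3.43 (SE 1.36), and 1.67 in DESeq2 and 1.64 in edgeR. It had 2.25, 35.9 and 500 normalised reads in control and 115, 522 and 646 in LOY libraries, and controls 7 and 11 overlapped the LOY range. Rbm5, a splicing regulator of apoptosis genes, had means of 1882 ± 697 in control and 934 ± 524 in LOY (SD, n = 6 each) and gave -1.08 (SE 0.45). The adjusted p of both was 0.997 in limma.

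DESeq2 called 1 of the 124 genes of this list that it could test, where it called 3.12% of all genes. The gene was Mbnl3, a muscleblind-family splicing regulator, with an adjusted p of 0.00303. It had 0 reads in all 6 control libraries and 991 reads in LOY, and the values there were 595 normalised reads in LOY 5, 239 in LOY 10, 50.5 in LOY 15, 1.05 in LOY 14 and 0 in LOY 3 and LOY 4. It reached 10 normalised reads in 3 libraries only, so it was not among the genes tested in limma. It was named after its result was seen, and it was at or near 0 in 3 of the 6 LOY libraries.

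Of the 52 members, 23 share exon sequence with another annotated gene, among them Hnrnpab with Phykpl, Hnrnpk with Rmi1, Hnrnpu with Cox20 and Snrpa with BC024978. The library chemistry keeps neither strand nor molecular identifiers, so reads in shared stretches cannot be told apart and PCR copies count as reads.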

How the data were processed

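The authors deposited 1 table of 11911 genes for the 12 libraries. The file headers give only library codes for its 12 signal columns. From the values, the authors had made each signal column by scaling its read counts by a single factor, since what is above 0 is a whole multiple of the same step (100% of values, to within 0.01 of a read), and the reads were recovered from it. The authors' log2 fold changes and p-values are in the same table, and the tool behind them is not named there. Per the submitters' processing notes, the tools include STAR 2.5.2b, Trimmomatic 0.36, featureCounts (Subread 1.5.2) and bcl2fastq 2.17, with GRCm38 and mm10 as builds. Here, limma 3.58.1 (R 4.3.3, trend and robust variances) was fitted to log2(normalised reads + 1) with genotype as the only term, over 6951 genes that passed the filter, with Benjamini-Hochberg adjustment, and was tested on simulated data. The edgeR 4.0.16 and DESeq2 1.42.0 fits on the recovered reads, other pseudocounts, filters and scalings, a cardiomyocyte covariate, array weights and fits without 1 library were alternatives. Symbols turned into dates or left blank (25) were replaced from GENCODE M21, which gave coordinates and lengths and matched 11892 identifiers. The members and the lists were chosen with earlier results of these data known. Members were named in full where they passed or did not overlap, or were among the 4 of smallest p or the 2 of highest level per kilobase in their role, with Snrpn added; from the other splicing genes, any called and the 4 of smallest p, of which 1 is not reported here. Intervals and limits cover counting error or library spread only. Protein sequences were not used here.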

Additional observations from a re-analysis of the deposited data

Results flagged for a closer look

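A value was picked out where the highest or lowest of the 6 libraries of a group lay apart from the other 5, its gap to the nearest being a larger share of the range than Dixon's 95% critical value, on the log2(normalised reads + 1) scale. This was looked for in 109 groups of 6, the members with a read in the group and 3 totals over all members. It held in 13, all of single members. The critical value would flag about 5.45 if values were normally distributed. That does not hold here, as 21 members were at 0 in a library. The share flagged over all genes was not computed, so no excess in the members can be read from the 13. Values are in normalised reads.

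Control 8 held 4 of the 13. It was low for Snrpb, at 60.8 beside 624 to 1183 in the other controls, for Sf3b5, at 8.87 beside 207 to 653, and for Hnrnph2, at 46.9 beside 540 to 1460. It was high for Sf3b6, at 2027 beside 398 to 594. Control 7 was low for Sf3b4, at 67.1 beside 307 to 410, and for Hnrnpl, at 19.1 beside 220 to 351. Control 6 was low for Sf3a3, at 2.99 beside 261 to 568.

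Among LOY libraries, LOY 14 had 0 reads of Snrpe, where the other 5 had 66.4 to 384, and 162 of Snrpn, where they had 0. LOY 5 was at 25.7 for Srsf11, beside 275 to 626, and at 0 for Hnrnpll, beside 105 to 574. LOY 4 was at 0 for Hnrnpa1, beside 172 to 753. LOY 3 was high for Snrpa, at 110 beside 0.706 to 6.92.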

How the results depend on the processing

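Members called numbered 0 in limma and under all 22 alternatives, and with 1 library left out at a time 0 to 3 members had an unadjusted p under 0.05. The median log2 fold change of tested members lay between -0.02 and 0.28 in those fits. Over all genes, limma called 2 and DESeq2 303. The count was 0 with edgeR, with the cardiomyocyte covariate, with a mean of at least 50 as the filter, with no filter, and without control 8 and LOY 5 together, and 0 to 4 with 1 library left out. The cause of these differences was not tested. DESeq2 called 1 of 124 other splicing genes (Mbnl3), beside 3.12% of all genes. Of 26 named fold changes, 22 kept their direction in every alternative run and 4 did not. Sf3a2 turned to -0.32 in DESeq2 and -0.33 in edgeR. Snrpg turned to 0.053 in DESeq2, 0.074 in edgeR and 0.13 with the covariate. Srsf5 turned to 0.24 with the covariate and 0.032 with quantile normalization, and lay between -0.21 and 0.066 with 1 library left out. Sf3b1 turned to 0.021 without control 8 and LOY 5, and lay between -0.21 and 0.047 with 1 library left out. Each of these 4 had an interval that held 0. Direction alone was compared, and size could still fall away. In DESeq2 Sf3a1 went from -2.63 to -0.17 and Snrpd3 from 1.14 to 0.0030. Most of the 26 were named for a small p in the same fit, which favours a kept direction. Of all 46 tested members, 7 turned in both count models. No paired analysis was possible because the groups share no replicate number. The spread between libraries was widest under 100 normalised reads, and no fit varied depth.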
